A study of Schizosaccharomyces pombe with 36 samples.

Results

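Fission yeast cells (*Schizosaccharomyces pombe*) labelled as lacking *atf21* were profiled by RNA sequencing before and 30 min after sorbitol was added, and the RNA level of every annotated feature was compared between these 2 time points. The comparison drew on 6 of the 36 libraries of the series: 3 biological replicates of the *atf21Δ* strain at 0 min and 3 at 30 min in yeast extract (YE) medium, with sorbitol at 1 M. The other libraries were from the same strain at 15, 60, 120 and 180 min and from wild type (WT) cells at all 6 times, 3 in each group. No genotype beyond WT or deletion of *atf21* is given in the labels, and all cultures received sorbitol, so the 0 min libraries are the only unstressed ones. Levels are given as RPKM, the number of reads on a feature divided by its length in kb and by the library's mapped reads. Of the 7039 features in the deposited table, 5882 reached an RPKM of 1 in more than 6 of the 36 libraries and were tested.

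Sorbitol raises the osmolarity of the medium and draws water out of the cell. In fission yeast stress signals pass along a kinase cascade to the mitogen-activated protein kinase (MAPK) Sty1. Sty1 enters the nucleus and acts through the basic leucine zipper (bZIP) transcription factors Atf1 and Pcr1 on many stress genes. Cells then make glycerol as a compatible solute, produce protective enzymes and slow the genes of growth. Atf21 is a further bZIP protein related to Atf1.

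The 6 libraries held 9977762 to 19622202 mapped reads each, and 92.6 to 95.4% of these fell on annotated features. Ribosomal RNA took 34.2 to 44.7% of the reads on features, with ranges that overlapped between 0 and 30 min. A single read on a 1 kb feature was worth an RPKM of 0.051 to 0.10, which set the lowest level that could be seen. Counts of replicate libraries differed beyond counting error, so none was counted as a repeat deposit. Replicate 3 at 0 min held the highest scaled value of the 3 unstressed libraries for all 10 of the protein-coding genes with the largest rises, and for 42.9% of the 480 features that rose over 2-fold, against 35.7% of all tested features. Without it the log2 changes of those 10 genes were larger, at 6.36 to 8.95 against 6.28 to 8.44 with it.

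Reads on *atf21* itself (SPBC2F12.09c, chrII:1722231-1724450, plus strand) were not absent from the libraries labelled *atf21Δ*. The RPKM of *atf21* was 0.271, 0.267 and 0.629 at 0 min and 15.4, 17.8 and 30.4 at 30 min. In WT it was 0.108, 0.0457 and 0.125 at 0 min and 27.8, 29.2 and 28.1 at 30 min. The ranges of the 2 times did not overlap in either strain, and the unstressed libraries labelled *atf21Δ* all lay above those of WT. The unstressed WT values rest on few reads, since 1 read per kb was worth an RPKM of 0.060 to 0.10 there. Of the unstressed libraries labelled *atf21Δ*, replicate 3 stood well above the others. The log2 change in the libraries labelled *atf21Δ* was 4.73 (SE 0.24), with a limma adjusted p of 9.74e-11, and an exact permutation test of 3 against 3 libraries gave p = 0.1, the smallest it allows. The mean RPKM at 15, 60, 120 and 180 min was 4.42, 2.72, 0.644 and 0.259, so 30 min was the highest of the 6 times. The deposited value covers the whole 2220 bases of the feature, and where in it the reads fell cannot be told from it. Every direction between strains given here therefore rests on the label alone, and the libraries are called "labelled *atf21Δ*".

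At 30 min, 1157 features were called higher than at 0 min (19.7% of those tested) and 1124 lower (19.1%), or 2281 in either direction (38.8%). A feature was called where its limma p, adjusted by the Benjamini-Hochberg method over all features and the 5 later times, was under 0.05, and a log2 change is on the scale of log2(scaled RPKM + 0.5). By size, 480 of the higher features exceeded 2-fold (8.16%), 158 exceeded 4-fold and 45 exceeded 16-fold, whereas 251 of the lower features exceeded 2-fold (4.27%), 15 exceeded 4-fold and 1 exceeded 16-fold. The median change was 0.86 among the called rises and −0.68 among the called falls. The split between directions depended on the scaling between libraries. On the deposited RPKM without scaling, 552 features were called higher and 1650 lower, with 315 higher and 546 lower over 2-fold. The median of all features was then −0.30 in place of −0.02. Counts of list members without scaling, given below, stand beside these 552 and 1650 of 5882 features and not beside the scaled shares.

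**Figure D1:**
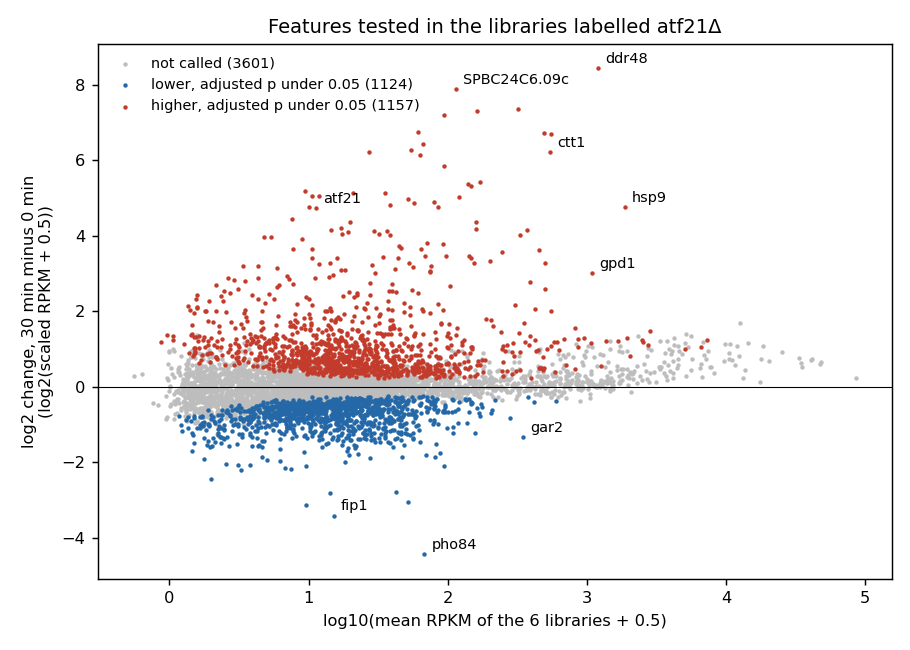
Log2 change at 30 min (vertical axis) against mean level over the 6 libraries (horizontal axis, log10 of RPKM + 0.5) for the 5882 tested features, with called features coloured by direction. Rises reach a log2 change of 8.44 and falls −4.45, with 158 called rises and 15 called falls over 4-fold.

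The largest rises and falls, here and for non-coding RNAs, were taken only from features whose scaled values did not overlap between the times. Over all tested features, the 3 stressed libraries lay above the unstressed ones in 25.8% and below them in 26.9%. The 10 protein-coding genes with the largest rises had unstressed levels from below an RPKM of 1 to 18.3. *ddr48* (SPAC23H3.15c, chrI:2523372-2524734, minus strand), named after a budding yeast gene induced by DNA damage and other stresses, had an RPKM of 5.07, 4.84 and 18.3 at 0 min and 2117, 2265 and 2736 at 30 min. Its log2 change of 8.44 (SE 0.29) was the largest of all tested features. SPBC24C6.09c, of the phosphoketolase family (chrII:2335176-2337787, minus strand), had 0.23, 0.17 and 2.09 at 0 min and 215, 200.3 and 266 at 30 min. SPACUNK4.17, of a NAD-binding dehydrogenase family, had 3.2, 2.79 and 7.55 at 0 min and 573, 587 and 736 at 30 min. For each of these genes the lowest 30 min library was far above the highest unstressed one, and replicate 3 was the highest of the unstressed libraries.

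*lsd90* had an RPKM of 1.59, 1.5 and 2.71 at 0 min and 385, 257 and 319 at 30 min, and its log2 change was 7.30 (SE 0.25). SPAC22A12.17c, a dehydrogenase, had 0.328, 0.949 and 2.17 at 0 min and 165, 167 and 227 at 30 min (log2 change 7.20), and *ssd2* (SPAC139.05), a succinate-semialdehyde dehydrogenase, had 0.459, 0.407 and 1.94 at 0 min and 117, 114 and 131 at 30 min (log2 change 6.76). The groups did not overlap for any of these genes, as the naming rule required. *rtc3* (SPBC21C3.19), of the SBDS family, had 6.17, 11.1 and 16.8 at 0 min and 820.3, 820.0 and 1294 at 30 min (log2 change 6.73). *smp4* (SPCPB16A4.07) had 9.12, 12.4 and 15.3 at 0 min and 833, 1244 and 1192 at 30 min (log2 change 6.71). Both stood at a higher unstressed level than the dehydrogenases and reached the range of the most abundant stress mRNAs. The list closed with the transporter SPCC794.04c, at 0.618, 1.16 and 2.27 at 0 min and 99.9, 128 and 162 at 30 min (log2 change 6.45), and *wwm3* (SPBC660.05), at 0.953, 0.759 and 1.32 at 0 min and 68.6, 158 and 92.2 at 30 min (log2 change 6.28). At 30 min replicate 2 of *wwm3* stood above the other 2, and the mean of this gene at 15 min was 101.

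**Figure D2:**
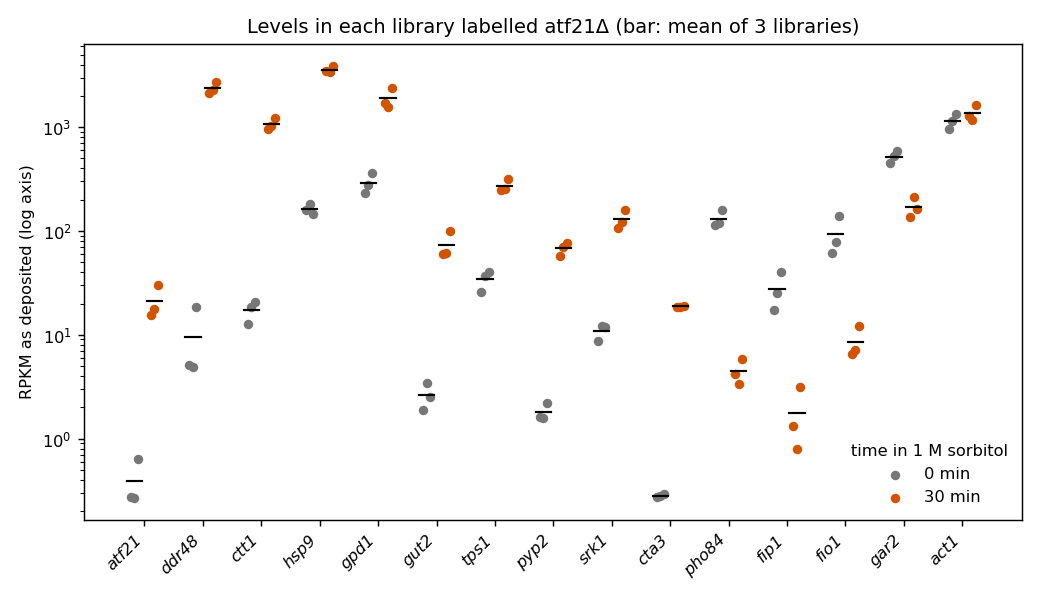
RPKM in each of the 6 libraries labelled *atf21Δ* (log axis), with 3 unstressed and 3 stressed points per gene, for *atf21* and 14 genes described in the text, with a bar at the mean of 3 libraries. The unstressed and stressed points are separate for most genes, as for *ctt1* at 12.8 to 20.6 and 969 to 1213.

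Within the Sty1 pathway the clearest rises were in the list of genes placed on or below the kinase. Of 10 genes listed as phosphatases and downstream kinases of Sty1, 7 were called higher (70%) and 0 lower, against 19.7% and 19.1% of all features. The median log2 change was 1.21 against −0.02 over all features, and the same counts were found without scaling. *pyp2*, a tyrosine phosphatase that inactivates Sty1, had an RPKM of 1.63, 1.59 and 2.21 at 0 min and 57.1, 70.4 and 76.1 at 30 min. All 3 stressed libraries lay far above the unstressed ones, and the log2 change was 5.13 (SE 0.23), with a limma adjusted p of 1.86e-11. *srk1*, a kinase that Sty1 activates and that restrains entry into mitosis, went from 10.9 ± 1.96 to 130.5 ± 27.1 (mean RPKM ± SD, n = 3, as in all later pairs of means) and changed by 3.80. *ptc1*, a serine/threonine phosphatase, changed by 2.05, and *pyp1*, the other main tyrosine phosphatase of Sty1, by 1.75. *pyp3*, which is also counted in the cell cycle list below, changed by 1.17. The calmodulin-dependent kinase genes *cmk2* and *cmk1* changed by 1.24 and 1.14.

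The list of the kinase cascade and phosphorelay moved little and in both directions. Of its 10 genes, 4 were called higher (40%) and 3 lower (30%), against 19.7% and 19.1% of all features. The median was −0.15, and without scaling the counts were 1 and 5. *mpr1*, the phosphotransfer protein of the phosphorelay, had the largest change at 1.65 (SE 0.10) and was the only one called higher on unscaled values as well. The response regulator gene *prr1* changed by 0.54, *sty1* by 0.51 and the histidine kinase gene *mak1* by 0.40, whereas the MAPK kinase gene *wis1* changed by −0.59, *mak3* by −0.51 and the kinase gene *win1* by −0.27. The RPKM of *sty1* was 25.4, 40 and 48.2 at 0 min and 33.1, 42.7 and 55 at 30 min. That of *wis1* was 8.29, 12.3 and 11 at 0 min and 5.79, 3.83 and 7.25 at 30 min. The deposited values of *sty1* overlapped between the times and separated only after scaling, while those of *wis1* did not overlap. The call of *wis1* had a limma adjusted p of 0.0343 and was lost in 6 of 18 alternative settings, among them the omission of single libraries.

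Among 13 bZIP and other stress transcription factors, 6 were called higher (46.2%) and 0 lower, against 19.7% and 19.1% of all features. The counts were 5 and 0 without scaling. *pcr1*, which encodes the partner of Atf1, had an RPKM of 3.32, 3.4 and 5.5 at 0 min and 28.5, 30.4 and 35.2 at 30 min. *atf1* had 5.16, 9.33 and 7.47 at 0 min and 18.1, 16.2 and 23.6 at 30 min. In both the stressed libraries lay above the unstressed ones, by a log2 change of 3.10 (SE 0.21) for *pcr1* and 1.64 (SE 0.18) for *atf1*. The heat shock factor gene *hsf1* changed by 1.03, *pap1*, which encodes the bZIP factor of the oxidative stress response, by 0.99, and *loz1*, a regulator of zinc homeostasis, by 0.54.

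The hexamer TGACGT, the core of the sequence that Atf1 and related bZIP proteins bind, was counted in the 500 bases before the annotated start of 5099 protein-coding genes. It was searched on both strands, so that ACGTCA on the printed strand is also a match and the palindrome TGACGTCA holds both. It was present in 8.14% of all these promoters, in 16.4% of the 1039 promoters of genes called higher, in 28.6% of the 395 of genes higher by over 2-fold and in 42.5% of the 80 of genes higher by over 8-fold. In the promoters of genes called lower its share was 5.64%, and in those with no call 5.99%. The hexamer CCCCTC, a binding sequence known for the transcription factor Rst2, was searched in the same way. It was present in 3.39% of all promoters, 4.33% of those of genes called higher, 6.33% of those over 2-fold and 2.50% of those over 8-fold (2 of 80). Of the 10 protein-coding genes with the largest rises, 3 held TGACGT in this window. The match nearest the start is shown for these genes and for 5 genes of the stress pathway, since they are those whose levels are described here. Each is printed 5′ to 3′ on the gene's strand from RefSeq assembly ASM294v3, with the hexamer in capitals.
SPAC22A12.17c (chrI:1189308-1189337, minus strand): agctttttcccaACGTCAcgactctccaaa
*smp4* (chrIII:955149-955178, plus strand): catcatatgttgACGTCAtttacggtatgt
*wwm3* (chrII:202197-202226, plus strand): tccccacaaaagTGACGTattgtccgtcgg
*atf1* (chrII:1546155-1546184, plus strand): agtgatgcaatgACGTCAtctgtttgaaac
*gpd1* (chrII:4035480-4035509, plus strand): tgtagtgtttttACGTCAtttggtacggct
*ctt1* (chrIII:58875-58904, minus strand): attgtgcaaataTGACGTtggtaattctac
*srk1* (chrIII:1301888-1301917, plus strand): cgttaacgaaggACGTCAaagtaggcaaat
*ptc1* (chrIII:2004477-2004506, plus strand): gtataccacgcgTGACGTaaatgcccgagt
These 8 matches began 37 to 74 bases before the gene start, and *srk1* and *wwm3* each held 3 in the window. The letters TGACGT were in none of the windows of *ddr48*, *pcr1*, *pyp2*, *cta3*, *hsp9*, *tps1* or *atf21*. A match is a count of letters and was not tested as a binding site.

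The genes of glycerol and trehalose metabolism changed member by member. *gpd1*, glycerol-3-phosphate dehydrogenase, the entry step of glycerol synthesis under osmotic stress, had an RPKM of 231, 277 and 359.9 at 0 min and 1700.2, 1572 and 2397 at 30 min. The stressed libraries were all above the unstressed ones, with a log2 change of 3.00 (SE 0.15) and a limma adjusted p of 7.13e-11. *gut2*, the mitochondrial enzyme that oxidises glycerol 3-phosphate, went from 2.61 ± 0.787 to 73.8 ± 22.4 and changed by 4.82 (SE 0.19). The dihydroxyacetone kinase gene *dak1* changed by 0.56 and *gpd2*, the second glycerol-3-phosphate dehydrogenase gene, by −1.05. Of the 6 glycerol genes 3 were called higher (50%) and 1 lower (16.7%), against 19.7% and 19.1% of all features. Of 5 trehalose genes 4 were called higher (80%) and 0 lower. *tps1*, trehalose-6-phosphate synthase, had 26, 36.8 and 40.1 at 0 min and 248, 253 and 318 at 30 min and changed by 3.29 (SE 0.13). *ntp1*, the trehalase that breaks the sugar down, changed by a similar 3.08, the *tps3* gene (SPACUNK4.16c) by 1.89 and the phosphatase gene *tpp1* by 0.63.

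Among hexose transporters 1 of 5 tested was called higher (20%) and 2 lower (40%), against 19.7% and 19.1% of all features. *ght2* went from 46.6 ± 11.1 to 616 ± 99.8 (log2 change 4.02), while *ght5*, the main high-affinity glucose transporter gene, went from 7.65 ± 0.965 to 1.36 ± 0.7 (log2 change −1.93) and *ght8* changed by −1.88. Of 17 genes of glycolysis and fermentation, 3 were called higher (17.65%) and 1 lower (5.88%), no more than among all features. The enolase gene *eno102* changed by 2.83 and the alcohol dehydrogenase gene *adh4* by −1.55, whereas *pgi1* (0.51) and *gpd3* (0.60), the glyceraldehyde-3-phosphate dehydrogenase gene, lost their calls without scaling. In the glucose and cAMP pathway 6 of 17 genes were called higher (35.3%) and 0 lower, and 5 and 1 without scaling. Both subunits of protein kinase A were among them, with 2.76 for the regulatory subunit gene *cgs1* and 2.72 for the catalytic subunit gene *pka1*. The G protein genes *git5* and *git11* changed by 2.38 and 1.54, and *fbp1*, the gluconeogenic fructose-1,6-bisphosphatase gene that this pathway represses, by 1.72 (SE 0.31).

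Of 26 antioxidant enzyme genes, 16 were called higher (61.5%, against 19.7% of all features), 1 lower and 9 had no call, with a median log2 change of 0.50, and 11 were higher and 1 lower without scaling. *ctt1*, catalase, had an RPKM of 12.8, 18.5 and 20.6 at 0 min and 969, 1017 and 1213 at 30 min. The 2 groups were far apart, and the log2 change of 6.22 (SE 0.13) had a limma adjusted p of 1.29e-15. The sulfiredoxin gene *srx1* changed by 3.67, the glutathione peroxidase gene *gpx1* by 3.62 and the glutathione transferase gene *gst3* by 3.47. Smaller rises were called for thioredoxin (*trx1*, 1.18), superoxide dismutase (*sod1*, 1.16) and thioredoxin peroxidase (*tpx1*, 0.91), and *grx4*, a glutaredoxin that also regulates iron genes, was the one called lower, at −0.89.

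Of 33 heat shock proteins and chaperones tested, 7 were called higher (21.2%, near the 19.7% of all features) and 2 lower (6.06%). The list's median of 0.02 did not stand apart from that of all features and was −0.28 without scaling. The rises lay in part of the list, led by *hsp9*, a small heat shock protein, at an RPKM of 159.5, 184 and 146 at 0 min and 3473, 3367 and 3919 at 30 min. Its stressed libraries were all above the unstressed ones with a log2 change of 4.76 (SE 0.20), and it had the highest mean level over the 6 libraries of all protein-coding genes called higher. *hsp3101* (SPCC757.03c) changed by 4.06, *hsp3102* (SPAC5H10.02c) by 2.42 and the Hsp70 gene *ssa1* by 2.48. The mitochondrial co-chaperone gene *hsp10* (−0.41) and the Hsp90 co-chaperone gene *sti1* (−0.45) were called lower.

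Of 66 proteasome and ubiquitin genes 43 were called higher (65.2%) and 1 lower (1.5%), against 19.7% and 19.1% of all features. No call was made for 22, and the median was 0.43. On unscaled values 8 were higher and 4 lower, against 552 and 1650 of all 5882 features. The ubiquitin-conjugating enzyme gene *ubc6* (2.01), *ufd1* (1.12) and the polyubiquitin gene *ubi4* (1.01) had the largest changes. Autophagy genes showed 18 of 29 called higher (62.1%) and 3 lower (10.3%), and 12 and 5 without scaling. Their median was 0.75, and 10 of the 18 were over 2-fold. *atg20* went from 3.44 ± 1.09 to 15.6 ± 2.19 (log2 change 2.32), *atg101* (*mug66*) changed by 2.22, the protease gene *atg4* by 1.71 and *atg2402* (SPBC1711.11) by 1.40.

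The steepest falls were in genes of phosphate and iron uptake. *pho84* (SPBC8E4.01c, chrII:4444125-4446200, plus strand), a phosphate transporter, had an RPKM of 114, 119 and 158 at 0 min and 4.17, 3.34 and 5.86 at 30 min. All 3 stressed libraries lay far below the unstressed ones, and the log2 change of −4.45 (SE 0.24) was the only fall over 16-fold. *pho4*, an acid phosphatase, changed by −1.99 (SE 0.22). Over the whole phosphate list of 9 genes, 2 were called lower (22.2%) and 1 higher (11.1%), against 19.1% and 19.7% of all features. Those lower were *pho84* and *pho4*, and the one higher was SPBC14F5.13c at 0.72. Without scaling 3 were called lower and 0 higher.

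Of 20 genes of iron and copper uptake and their regulators, 9 were called lower (45%) and 2 higher (10%), against 19.1% and 19.7% of all features. The median was −0.45, and without scaling 11 were lower and 2 higher. *fip1*, the iron permease, had 17.2, 25.3 and 40.1 at 0 min and 1.33, 0.794 and 3.15 at 30 min. *fio1*, the ferroxidase that works with it, had 62, 78.6 and 139 at 0 min and 6.53, 7.07 and 12 at 30 min. These neighbouring genes fell together, with log2 changes of −3.41 (SE 0.34) and −3.05 (SE 0.23), with replicate 3 the highest at both times. The siderophore transporter genes *str3* and *str1* changed by −3.13 and −1.78, the ferric reductase gene *frp1* by −2.82, the copper transporter genes *ctr4* and *ctr5* by −1.76 and −1.20, and the vacuolar transporter gene *abc3* by −1.29. *php2*, which encodes a subunit of the CCAAT-binding complex, was also called lower (−0.69). The 2 called higher were *fep1* (1.52), the GATA repressor of iron uptake genes, and *sib2* (1.46), an ornithine monooxygenase of siderophore synthesis.

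The other protein-coding genes among the 10 largest falls did not share a list. SPAC8E11.10, a sorbose reductase, had an RPKM of 64.3, 68.4 and 93.6 at 0 min and 8.47, 6.03 and 11.5 at 30 min (log2 change −2.78). *fkbp39*, a peptidyl-prolyl isomerase of the FKBP family, had 130.2, 151 and 189 at 0 min and 17.3, 40.5 and 35.7 at 30 min (log2 change −2.09). *atl1*, an alkyltransferase-like DNA repair protein, changed by −1.98. The fall of *ecl3*, a small regulator of lifespan, was the least secure of the 10: its RPKM was 3.34, 3.57 and 6.68 at 0 min and 0, 0.576 and 1.39 at 30 min, its limma adjusted p was 0.0302, and the call was lost in 7 of 18 alternative settings.

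Genes for making ribosomes fell as a group, whereas the direction of the genes for ribosomal proteins depended on the scaling. Of 91 ribosome biogenesis and RNA polymerase I genes, 76 were called lower (83.5%) and 1 higher (1.1%), against 19.1% and 19.7% of all features. The median log2 change was −0.88, and the counts were 83 and 0 without scaling. *rrp8* went from 33.1 ± 1.65 to 8.62 ± 2.22 (log2 change −1.62), *nop12* from 58.7 ± 3.6 to 16.9 ± 4.05 (−1.50), *nog1* from 96.6 ± 18.1 to 28 ± 3.76 (−1.47), and *imp4* (SPAC19A8.07c) changed by −1.48. The one called higher was *rrp45*, an exosome subunit gene, at 0.69. *gar2*, nucleolin, was among the most abundant mRNAs called lower, at an RPKM of 455, 524 and 585 at 0 min and 137, 210.3 and 161 at 30 min, with no overlap between the groups and a log2 change of −1.33. Of 138 cytosolic ribosomal protein genes, 5 were called lower (3.6%) and 0 higher, with a median of 0.05. The median was −0.25 without scaling and −0.34 after quantile normalization, with 14 and 40 genes called lower. The largest single change was that of *rps2202* (−0.61). Ribosomal protein paralogs are near-identical, and reads that map to more than 1 place were discarded in the deposited values, so their single-gene levels are uncertain.

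Amino acid biosynthesis was split, with 15 of 52 genes called lower (28.85%) and 9 higher (17.3%), against 19.1% and 19.7% of all features. Without scaling the counts were 19 and 1. The largest changes were −1.23 for *met17* (SPBC428.11), −0.79 for *his5* and −0.70 for *leu2* among the falls and 0.77 for *met6* among the rises. Nuclear genes of the respiratory chain and ATP synthase had 22 of 52 called higher (42.3%) and 2 lower (3.8%), with a median of 0.33. The counts were 1 and 4 without scaling, when the median was 0.04. *sdh2*, the iron-sulfur subunit of succinate dehydrogenase, changed by 0.79 and *atp5* by 0.66. Called lower were *atp23* (−1.05) and SPBC26H8.16 (−0.72), the latter with its call lost in 3 of 18 alternative settings. Members were taken by gene name, so *atp23* need not be a subunit of these complexes. In the mitochondrial genome 4 of 35 tested genes were called higher (11.4%) and 0 lower, against 19.7% and 19.1% of all features. Those higher were *cob1* (0.51), *cox1* (0.46) and the tRNA genes SPMITTRNAASN.01 and SPMITTRNAARG.02. The calls of *cob1* and *cox1* were lost without scaling. Over the 18 alternative settings the call of *cob1* was lost in 6, and those of *cox1* and SPMITTRNAASN.01 in 3 each.

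**Figure D3:**
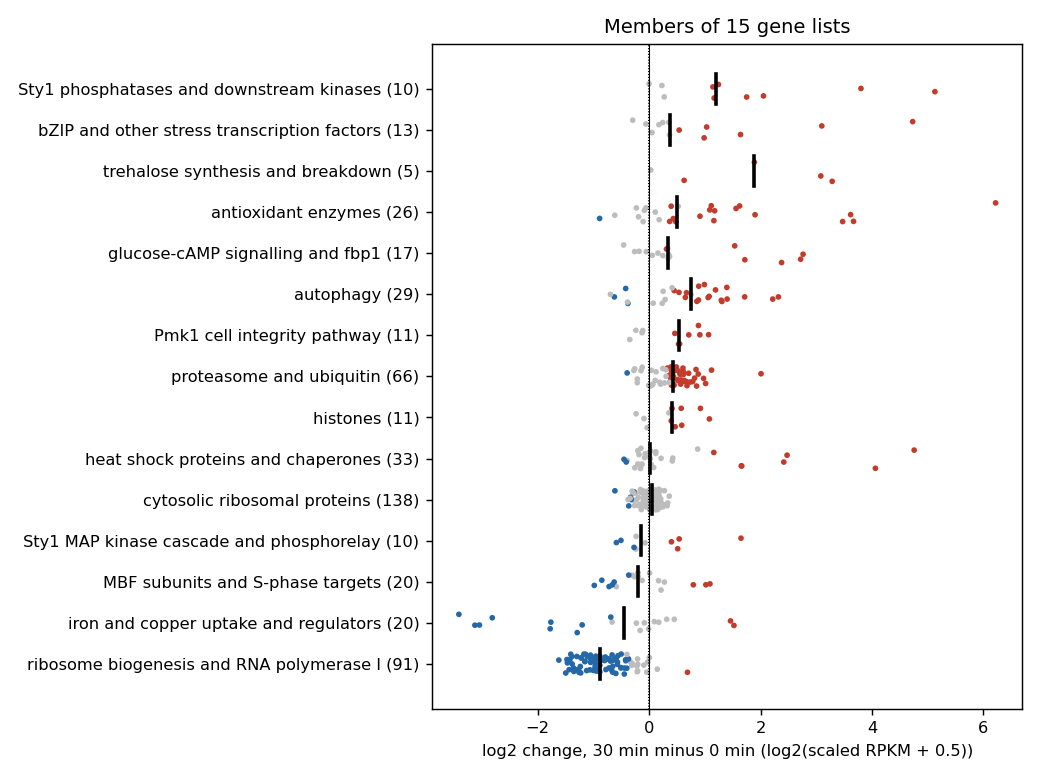
Log2 change at 30 min of every tested member of 15 gene lists (points, coloured by call), with a bar at the median of each list and a dotted line at the median of all features (−0.02). Ribosome biogenesis has the lowest median of those shown (−0.88) and the 5 trehalose genes the highest (1.89).

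Most of the abundant mRNAs that were called changed by less than 2-fold. Those called higher with the highest mean level were *hsp9*, *act1* (actin, log2 change 0.54), *ddr48*, *gpd1* and *cox1*, and those called lower were *rpp101* (−0.37), *hsp10*, *rpp103* (−0.27), *gar2* and *pma1*. *act1* had an RPKM of 963, 1136 and 1339 at 0 min and 1273, 1165 and 1640.4 at 30 min. *pma1*, the proton pump of the plasma membrane, had 286, 392 and 484 at 0 min and 152, 142 and 234 at 30 min. The deposited ranges of *act1* overlapped between the times, and its call was lost without scaling. Those of *rpp101* and *rpp103* were lost in 5 and 6 of 18 alternative settings, mostly the omission of single libraries.

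The levels at the other times of the same strain were set beside these. The mean RPKM of *ddr48* was 424, 121, 96.7 and 40 at 15, 60, 120 and 180 min. That of *ctt1* was 243, 157, 104 and 52.3, and that of *gpd1* 818, 906, 567 and 475 at the same times. Among the 6 times, 30 min had the highest mean for each of these 3 genes, and *gpd1* and *ctt1* were still above their unstressed means of 289 and 17.3 at 180 min. For *pho84* the means were 27, 68.9, 76.7 and 85.7, for *fip1* 10.6, 6.81, 12.2 and 30, and for *gar2* 464, 217, 461 and 498. These times share the 0 min libraries, so their values are set side by side and were not tested against each other.

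In the MBF list, which holds the G1/S transcription complex and its S-phase targets, 6 of 20 genes were called lower (30%) and 3 higher (15%), against 19.1% and 19.7% of all features, with 9 and 2 without scaling. The 3 called higher were the subunit genes *res2* (1.09) and *cdc10* (1.02) and *rep1* (0.79), while targets such as *mik1* (−0.98), an inhibitory kinase, *mrc1* (−0.85), a replication checkpoint mediator, and *cdc22* (−0.72), a ribonucleotide reductase subunit, were lower. Of 20 kinases, cyclins and inhibitors of the cell cycle, 5 were called higher, *puc1* (1.28) and *cdr1* (0.99) among them, and 3 lower (25% and 15%), shares near those of all features. In RNA from a whole culture a lower level per cell and a smaller share of cells at one stage of the cycle cannot be told apart.

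Histone genes had 7 of 11 called higher (63.6%) and 0 lower, against 19.7% and 19.1% of all features, with 2 and 0 without scaling. *hht3* (1.08) and *hhf3* (0.92), a divergent H3 and H4 gene pair, changed most. Histone paralogs share sequence, so their single-gene values carry the same uncertainty as those of ribosomal protein genes. In the cell wall list 5 of 21 genes were called lower (23.8%) and 3 higher (14.3%), near the 19.1% and 19.7% of all features. The glucanosyltransferase gene *gas2* (1.81) and the glucanase gene *exg3* (1.54) were among those higher. Called lower were *eng1*, the glucanase that dissolves the septum, from 76.2 ± 23 to 16.4 ± 3.97 (−1.86), and the further septum glucanase *agn1* (−1.17). The Pmk1 cell integrity pathway had 7 of 11 called higher (63.6%) and 0 lower, and 3 and 2 without scaling. The MAPK gene *pmk1* (1.07), the MAPK kinase kinase gene *mkh1* (0.91) and the protein kinase C genes *pck1* (0.89) and *pck2* (0.71) led it. *cta3*, a cation-transporting ATPase of the plasma membrane, had an RPKM of 0.273, 0.279 and 0.292 at 0 min and 18.7, 18.7 and 19.1 at 30 min. The replicates of *cta3* were close at both times and far apart between them, with a log2 change of 4.76 (SE 0.24). Of the other 12 cation transporter genes tested, *yam8* was called higher (0.65) and 3 were called lower, the proton pump gene *pma1* (−0.84), *pmr1* (−0.60) and *zhf1* (−0.49). With *cta3* included, 15.4% of the 13 tested were called higher and 23.1% lower, near the shares of all features.

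Genes of sexual differentiation were called in both directions, with 9 of 24 higher (37.5%) and 3 lower (12.5%), against 19.7% and 19.1% of all features. Without scaling the counts were 5 and 3. *isp6*, a vacuolar protease gene, changed by 2.52 and *isp7* by 2.42, and both also belong to the nitrogen starvation list. There 6 of 15 genes were called higher (40%) and 1 lower (6.7%). The amino acid permease genes *per1* and *put4* of that list changed by 1.85 and 1.65. In mating, *byr2*, the MAPK kinase kinase gene of the pheromone pathway, changed by 1.06, and *mfm2*, an M-factor precursor gene, by −1.49. Of 108 tested genes named *mug* or *meu* for their upregulation in meiosis, 28 were called higher (25.9%, against 19.7% of all features) and 9 lower, and 21 and 13 without scaling. *mug147* (4.36), *mug143* (3.41), *mug191* (3.28) and *mug190* (3.24) rose over 8-fold. All 3 genes of the uracil-regulatable cluster were called higher: *urg1* went from 1.44 ± 0.567 to 18.6 ± 9.59 (log2 change 3.40), *urg2* changed by 3.29 and *urg3* by 0.85, of which *urg3* was not called without scaling.

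In the 3 remaining lists few genes changed over 2-fold. Of 18 RNA-binding regulators of stress mRNAs, 7 were called higher (38.9%) and 5 lower (27.8%), against 19.7% and 19.1% of all features. Without scaling the counts were 3 and 6. *vip1* changed by 1.68 and *cip1*, which encodes an RNA-binding partner of Csx1, by 1.09. Of 43 splicing factors, 7 were called higher (16.3%) and 9 lower (20.9%), near the shares of all features. Without scaling the counts were 1 and 14. The largest changes were those of *prp11* (0.87) and the kinase gene *prp4* (−0.83). Of 25 sterol and fatty acid genes, 2 were called lower (8%) and 1 higher (4%), below the shares of all features. Those lower were *hmg1*, HMG-CoA reductase (−1.04), and *erg8* (−0.40). The one higher was *ins1* (0.56), whose call was lost in 5 of 18 alternative settings, the unscaled one among them.

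Among structural RNAs, 34 of 174 tested tRNAs were called higher (19.5%, near the 19.7% of all features) and 0 lower, with a median log2 change of 0.83. The count called higher depended on the setting. It ran from 5 to 43 when single libraries were left out and was 18 without scaling. With only the libraries of 0 and 30 min it was 56, and with a replicate block 93. None of 19 snoRNAs passed, and 1 of 38 rRNA features did. Many tRNA genes have identical copies, and reads that map to more than 1 place were discarded, so no single tRNA is described.

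Non-coding RNAs (ncRNAs) were called in both directions. Of 752 tested ncRNAs, 73 were called higher (9.71%) and 110 lower (14.6%), against 1044 (21.4%) and 1012 (20.8%) of 4873 protein-coding genes. Levels were low, and 90 of the 183 called ncRNAs had fewer than 50 reads per library on average. SPNCRNA.1165 (chrIII:966442-967703, minus strand) had the largest rise, with an RPKM of 0, 0.529 and 0.323 at 0 min and 15.8, 27.6 and 24.3 at 30 min and a log2 change of 5.05 (SE 0.32). SPNCRNA.1611 had 0.0726, 0.0537 and 0.169 at 0 min and 6.98, 9.3 and 8.87 at 30 min (log2 change 3.97). SPNCRNA.828 had 0.493, 0.989 and 0.939 at 0 min and 11.7, 16.4 and 12.9 at 30 min (log2 change 3.65). In all of these the 2 groups were separate, as the naming rule required, from an unstressed level near the limit of detection for the first. SPNCRNA.1499 and SPNCRNA.1427 changed by 2.95 and 2.89.

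The largest fall was that of SPNCRNA.100, at 1.48, 2.56 and 4.87 at 0 min and 0, 0 and 0 at 30 min. Its unstressed libraries held 3 to 17 reads and its stressed libraries none, so that against a floor of 3 reads per library (RPKM 0.753 to 1.15) it was at least 2.96-fold lower. SPNCRNA.1696 (*nam3*), SPNCRNA.1334 and SPNCRNA.863 changed by −2.19, −2.14 and −2.11.

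Since reads were counted by strand, an ncRNA and the mRNA on the opposite strand could be told apart. Of 1194 such overlapping pairs, 647 had both members tested, which covered 500 ncRNAs. Over these pairs the log2 changes of the 2 members were hardly related (Pearson's r = 0.06 and Spearman's rho = 0.09, given as a description since genes are not replicates and an ncRNA can occur in several pairs). Where the mRNA was called higher, in 142 pairs, the ncRNA was higher in 19 (13.4%) and lower in 22 (15.5%). Where the mRNA was lower, in 127 pairs, the ncRNA was higher in 5 (3.9%) and lower in 23 (18.1%). Where the mRNA had no call, in 378 pairs, the ncRNA was higher in 23 (6.1%) and lower in 65 (17.2%). The ncRNAs opposite a coding gene had a median log2 change of −0.21 over 527 tested, and the other 225 had the same median to 2 decimals.

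Opposite several of the genes with the largest rises the ncRNA fell. Opposite *ddr48*, SPNCRNA.832 had an RPKM of 2.95, 2.47 and 3.01 at 0 min and 0.453, 1.04 and 1.09 at 30 min. Opposite SPBC24C6.09c, SPNCRNA.1505 had 10.6, 12.6 and 13.4 at 0 min and 1.4, 2.06 and 2.04 at 30 min. Opposite SPACUNK4.17, SPNCRNA.857 had 5.35, 8.91 and 6.77 at 0 min and 1.31, 0.824 and 1.49 at 30 min. In each of these pairs all stressed libraries were below all unstressed ones, by log2 changes of −1.09, −2.17 and −1.86. Opposite *ssd2*, SPNCRNA.706 had 3.39, 5.02 and 4.18 at 0 min and 1.18, 0.868 and 0.59 at 30 min and changed by −1.51.

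This did not hold for all strong rises. Of the 27 pairs whose mRNA rose over 4-fold, the ncRNA was lower in 10 and higher in 6. Both are larger shares than among the 378 pairs whose mRNA had no call (17.2% lower and 6.1% higher). SPNCRNA.828 and its opposite gene SPAC32A11.02c rose together, the latter with an RPKM of 5.84, 7.96 and 11.5 at 0 min and 214, 325 and 319 at 30 min and a log2 change of 5.31. SPNCRNA.1611 lies opposite both *rsv2*, a zinc finger transcription factor gene with 0.797, 1.54 and 1.57 at 0 min and 15.1, 23 and 18.3 at 30 min (log2 change 3.66), and *hhf3*, which rose by 0.92, and SPNCRNA.1427 lies opposite *wsc1*, a cell wall sensor gene (0.53) whose call was lost in 5 of 18 alternative settings. On the falling side, *pho4* (−1.99) and the opposite SPNCRNA.1358 (−0.92) were both lower, whereas *pcl1*, opposite SPNCRNA.100, and SPBC800.11, opposite SPNCRNA.1334, had no call at −0.23 and 0.13. The partner of *atf21*, SPNCRNA.1457, had no call at 0.15.

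**Figure D4:**
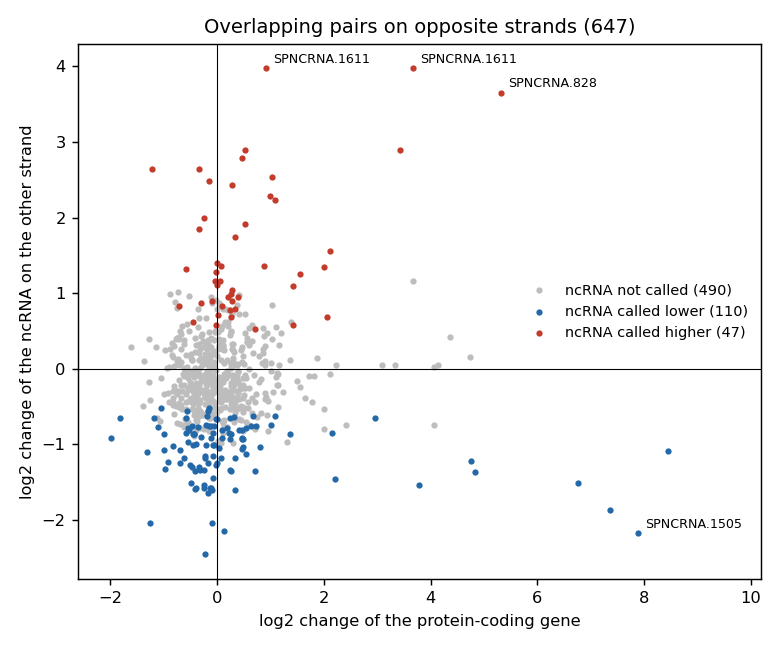
Log2 change at 30 min of the ncRNA (vertical axis) against that of the mRNA on the opposite strand (horizontal axis) for the 647 overlapping pairs with both members tested. Points with an mRNA change over 2 lie both below and above 0 on the ncRNA axis, with 10 ncRNAs called lower and 6 higher in those 27 pairs.

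The 30 min change in the libraries labelled *atf21Δ* was compared with that in WT, whose 0 min libraries are separate cultures. Across the 5882 tested features the 2 sets of log2 changes had r = 0.93 and rho = 0.86, given across features, which are not independent replicates. Of the 1157 features called higher, 1142 also had a change above 0 in WT, and of the 1124 called lower, 1108 had one below 0. The test of the difference itself, the 30 min change in the libraries labelled *atf21Δ* minus that in WT, passed for 0 of 5882 features in limma, with a lowest adjusted p of 0.9993. At an unadjusted p under 0.05 there were 188 features (3.20%), and voom on the reads recovered from RPKM gave 0 and 243. The lowest adjusted p ran from 0.1996 to 1 over the alternative settings. The median standard error of a difference was 0.25 on the log2 scale.

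The log2 change of *ctt1* was 6.22 in the libraries labelled *atf21Δ* and 5.97 in WT, a difference of 0.25 (SE 0.38). For *gpd1* the changes were 3.00 and 2.73, with a difference of 0.27 (SE 0.20), and for *pyp2* 5.13 and 5.14, with −0.01 (SE 0.31). *cta3* changed by 4.76 and 5.01, *hsp9* by 4.76 and 4.47, and *pho84* by −4.45 and −4.49. The rise of *atf21* itself was 5.90 in WT, with a difference of −1.17 (SE 0.31), whose limma adjusted p of 0.9993 did not pass. In an exact permutation test of 3 against 3 libraries at 30 min, *atf21* levels of the 2 strains gave p = 0.4 on the deposited RPKM and 0.1 on the scaled RPKM, and no p under 0.1 was possible. The p-values do not show that the strains responded alike.

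**Figure D5:**
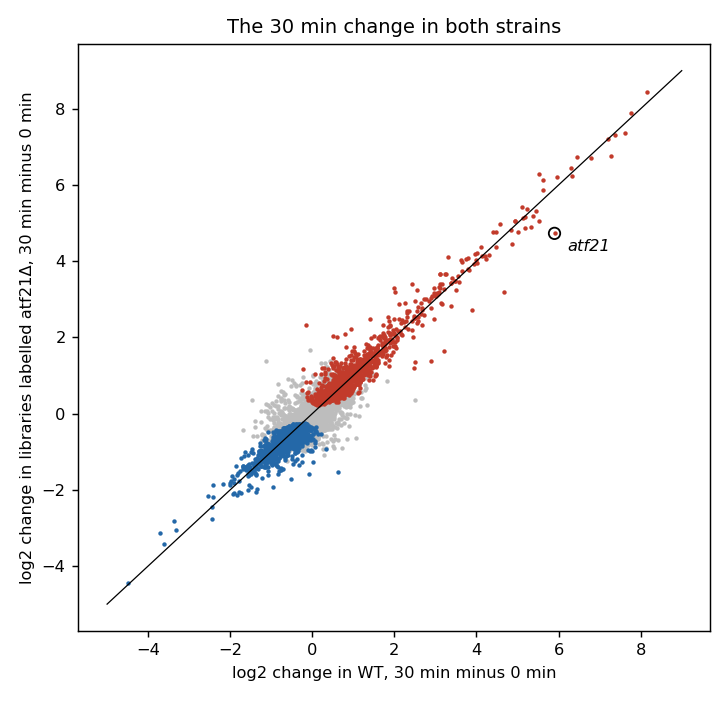
Log2 change at 30 min in the libraries labelled *atf21Δ* (vertical axis) against that in WT (horizontal axis) for the 5882 tested features, with the line of equal change and a circle around *atf21*. The points lie along the line (r = 0.93), and 0 features passed the test of the difference.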

How the data were processed

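Strand-specific total RNA libraries of *S. pombe* were sequenced by the authors as single-end reads on the SOLiD 5500xl after ribosomal RNA reduction. The authors mapped the reads with SHRiMP2 to the PomBase genome, discarded reads with more than 1 location and deposited RPKM per annotated feature and library, on the full feature span, with no pooling of replicates. From the 9977762 to 19622202 mapped reads per library, whole reads were recovered for 100.0% of 253404 values within 0.001.

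Testing was limited to the 5882 of 7039 features with an RPKM of 1 or higher in over 6 of 36 libraries. Libraries were scaled with a trimmed mean of M-values without weights (30% of ratios and 5% of levels trimmed at each end), and log2(scaled RPKM + 0.5) was fitted in limma 3.58.1 (R 4.3.3) with an intensity trend, over the 18 libraries labelled *atf21Δ*, with time as a factor. P-values were Benjamini-Hochberg adjusted over all features and the 5 later times, at a threshold of 0.05. Such log2 changes understate the change of low features. The difference between strains was an interaction term over all 36 libraries, adjusted over features. For *atf21*, two-sided exact permutation tests compared 3 with 3 libraries. Scripts were tested on simulated data.

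The text names *atf21*, the 10 largest called rises and falls among protein-coding genes and 5 each among ncRNAs with no overlap of the groups, the 5 most abundant called genes in each direction, the called list members with the largest changes (4 per list, and those that small counts refer to), opposite-strand partners and 10 pathway genes. Other list members named were chosen after their values were seen. The comparison and the gene lists were chosen with earlier results of these data known. Of the list entries, 14 were not found in the table, and 21 were left out because the name belongs to another kind of gene, a choice made after values were seen.

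Promoters are the 500 bases before the RefSeq gene start in ASM294v3, in which 99.2% of 6810 matched features share an end at the same base with the deposited table. Gene names and products come from the deposited table and RefSeq, where 5104 of 5133 protein-coding genes matched by locus tag. Replicate numbers were not treated as pairing, since the labels do not say that equal numbers belong together. Deviations of same-numbered libraries at 0 and 30 min correlated at 0.28, 0.09 and 0.34. Those of libraries with other numbers correlated at −0.32 to 0.019, so a pairing may have been left out of the main fit. Alternatives were other pseudocounts (0.1 and 1), no scaling, quantile normalization, no filter, a minimum of 5, no trend, voom on recovered reads, other sets of libraries, a replicate block and the omission of each library.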

Additional observations from a re-analysis of the deposited data

Results flagged for a closer look

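For *mrpl44* (SPBC56F2.14), a mitochondrial ribosomal protein gene, every scaled value at 30 min lay above those at 0 min in the libraries labelled *atf21Δ* and below them in WT. In the libraries labelled *atf21Δ* the RPKM was 12.3, 18 and 18.2 at 0 min and 14.6, 18.3 and 17.9 at 30 min. These deposited values overlapped between the times and separated only after scaling. In WT the RPKM was 19.4, 12.2 and 13.4 at 0 min and 6.09, 6.82 and 6.35 at 30 min. The difference between the strains in log2 change was 1.13 (SE 0.34). In limma its unadjusted p was 0.00264 and its adjusted p 0.9993, so it did not pass. Of the 5882 tested features, 4 separated upward in the first strain and downward in the second and 10 the reverse, and *mrpl44* was chosen after its values were seen.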

How the results depend on the processing

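Of 161 named features, 130 kept their call under all 18 alternatives. The count of called features was 1818 to 2176 when single libraries were left out (2281 with all), with 133 to 169 ncRNAs (183 with all) and 679 to 787 features over 2-fold, and 0 differences between strains. A block for the replicate number gave 2659 called features (1368 higher and 1291 lower), 219 ncRNAs, 752 over 2-fold and 0 differences. Deviations of same-numbered libraries correlated at 0.28, 0.09 and 0.34, and each library correlated best with its own number, which is a hint from the data and not part of the design. Voom on recovered reads called 2356 features. Without scaling 552 features were called higher and 1650 lower, against 1157 and 1124, and 25 list counts moved by over 1.5 times. With an RPKM minimum of 5, 42 ncRNAs were called of the 113 tested. Among promoters of rises over 2-fold the share with TGACGT was 28.6% and with CCCCTC 6.33%, against 16.4% and 4.33% of all rises. SPBC800.11, which had no call, was at −0.15 without scaling. The differences between strains in log2 change, none of which passed, changed sign for *wis1* (−0.0019) and *pyp2* (0.0083) with a pseudocount of 0.1 and for *atf1* (0.051) and *pyp2* (0.11) without scaling. When single libraries were left out they ran from −0.33 to 0.21 for *atf1*, from −0.14 to 0.37 for *pcr1*, from −0.15 to 0.21 for *pyp2*, from −0.088 to 0.18 for *sty1* and from −0.21 to 0.28 for *wis1*. The causes were not tested. Depth limits the ncRNA calls, 90 of which had under 50 reads per library on average.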
